A study of Homo sapiens with 16 samples.

Results

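The 42 genes described here copy DNA or carry the cell from G1 into S phase, and they were taken from a list of gene symbols. Of 32080 gene symbols on the array, all 42 were found, on 52 probes, and each gene was read at its brightest probe by the mean of all 16 arrays. Both cell lines, RPMI-8226 and MM.1S, were derived from human multiple myeloma, a tumour of plasma cells. Cells of each line were given DMSO alone, the vehicle, or 1 µM GSK126, 1 µM UNC0638, or 1 µM of each inhibitor together (hereafter the combination) for 6 days. GSK126 blocks EZH2, the enzyme that writes the histone mark H3K27me3, and UNC0638 blocks G9a, which writes H3K9me2. Each of the 8 groups held 2 biological replicates, and the RNA of each was hybridised to its own 1-colour array. The labels do not say how separate the cultures of a group were, so the p-values measure the spread between samples as labelled. That spread is the one between the 2 samples of a group, pooled over all groups of a fit and drawn towards that of all probes. Within a line the treatments share the same DMSO arrays, so an error in those arrays moves all 3 comparisons alike.

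A level below is the log2 intensity of a probe minus the 75th percentile of its array, and a difference is a difference of 2 group means on that log2 scale. A difference was called where the limma adjusted p was under 0.05 over all probes kept in the fit. The share of spots that stood well above background ran from 46.5% to 52.8%, and no spot was saturated. All 42 probes were well above background on 16 of 16 arrays, so none was lost to the filter on dim probes. Each line lay on a slide of its own, so slide and line cannot be told apart. On both slides the second number of an array's position went with the treatment (1 DMSO, 2 GSK126, 3 UNC0638, 4 the combination). The first number of the position was the replicate number. Position on the slide therefore cannot be told apart from treatment or from replicate number. All 8 plasma cell markers examined were well above background on every array of both lines, and the B cell markers PAX5 and CD22 on none. In bulk RNA, fewer cells in S phase and less RNA per cell cannot be told apart.

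Before a cell can copy its DNA, CDC6 and CDT1 load the ring-shaped MCM helicase onto origins during G1, a step called licensing. At the start of S phase the kinase CDC7 with its partner DBF4, together with MCM10, CDC45 and the GINS complex, switch the helicase on. Polymerases, the sliding clamp PCNA and the RPA complex then copy and guard the strands, while ribonucleotide reductase and thymidylate synthase feed them nucleotides. The transcription factors E2F1 and E2F2 turn many of these genes on late in G1, cyclin E and CDC25A among them, and E2F8 restrains them.

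RefSeq promoter windows (GRCh38.p14, 250 bases before to 50 after each annotated start) were found for 35 of the 42 genes, in 44 windows, since 7 genes had more than 1 start. Letters bound by E2F factors (TTTGGCGC, TTTCCCGC, TTTGCCGC or TTTCGCGC, either strand) stood in at least 1 window of 21 of the 35 genes. They were in 47.7% of the members' windows, beside 3.31% of the 35116 windows in the table. CCAAT stood in 54.5% of the members' windows and in 34.6% of all, and GGGCGG, the GC box, in 75% and 45% of them. TTTGAA or TTCGAA, the letters of the CHR element of mitotic genes, stood in 6.82% of the members' windows and in 16.4% of all. The stretches below end at or before the start, and the capitals mark the E2F letters. E2F1, E2F2, CDC25A and MCM6 are shown because they fell over 2-fold in MM.1S cells with the combination. PCNA, MCM3, POLA1 and LIG1 are shown because their combination difference, averaged over both lines, was the smallest of their role.
E2F1: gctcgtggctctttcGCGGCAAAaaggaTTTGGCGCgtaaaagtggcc
E2F2: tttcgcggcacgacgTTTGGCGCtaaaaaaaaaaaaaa
CDC25A: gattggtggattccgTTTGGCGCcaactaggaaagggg
MCM6: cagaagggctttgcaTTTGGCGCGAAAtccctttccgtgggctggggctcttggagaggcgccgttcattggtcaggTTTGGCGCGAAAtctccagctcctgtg
PCNA: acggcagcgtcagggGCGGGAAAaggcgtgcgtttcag
MCM3: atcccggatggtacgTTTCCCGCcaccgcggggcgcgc
POLA1: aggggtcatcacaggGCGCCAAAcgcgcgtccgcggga
LIG1: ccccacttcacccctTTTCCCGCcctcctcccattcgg
These lie at chr20:33686386-33686433 (E2F1, minus strand), chr1:23531253-23531290 (E2F2, minus), chr3:48188439-48188476 (CDC25A, minus), chr2:135876507-135876610 (MCM6, minus), chr20:5126659-5126696 (PCNA, minus), chr6:52284894-52284931 (MCM3, minus), chrX:24693766-24693803 (POLA1, plus) and chr19:48170436-48170473 (LIG1, minus). In MCM6 each of the 2 places matches on both strands, since TTTGGCGC and the reverse complement of TTTCGCGC overlap there. The 21 genes with the letters and the 14 without had median combination differences of -1.03 and -0.90 in MM.1S cells, and of -0.34 and -0.34 in RPMI-8226 cells. A match is a description of the letters and not a bound site.

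In MM.1S cells the combination lowered every member. All 42 were called lower (limma adjusted p between 0.000314 and 0.0471), beside 32.2% of the 17001 genes tested. At the median the members fell by 1.00, beside a median difference of -0.11 over all genes tested, and 21 members fell by over 2-fold. E2F2 fell most, by 1.60 (SE 0.13), a 3.04-fold fall, and RPA1 least, by 0.29 (SE 0.10). Both combination arrays were below both DMSO arrays for 42 of 42 members, beside 46.5% of all genes. Leaving out each array in turn left between 38 and 41 members called.

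UNC0638 alone called 23 members lower in MM.1S cells, beside 16.5% of all genes, with a median difference of -0.42. The largest falls were those of CDC25A (-0.89), E2F2 (-0.73) and E2F8 (-0.70). Both UNC0638 arrays were below both DMSO arrays for 37 members, beside 40.9% of all genes. The count of 23 calls fell when any one of the 8 arrays was left out, which leaves a group with a single array. The share of all genes called was not taken in those fits, so the lower counts need not be particular to the members. The members' median difference with UNC0638 ran from -0.47 to -0.36 over them. GSK126 alone called 1 member lower, CDC6 (-0.56, SE 0.12, limma adjusted p = 0.0463), beside 2.36% of all genes, and CDC6 was not called without any one of the 8 arrays. The members' median difference was -0.16, with 38 of 42 differences below 0, but -0.04 with 28 below 0 under quantile normalization and -0.08 with 30 under the percentile over detected probes. Both GSK126 arrays were below both DMSO arrays for 26 members, beside 36.3% of all genes.

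In RPMI-8226 cells the differences were smaller. The combination called 3 members lower, beside 4.72% of the 16035 genes tested: POLD1 (-0.74, SE 0.13, limma adjusted p = 0.0157), MCM4 (-0.80, SE 0.19, limma adjusted p = 0.0431) and CDT1 (-0.60, SE 0.15, limma adjusted p = 0.0455). The median difference was -0.33, beside -0.10 over all genes tested, with 39 of 42 differences below 0 and none past 2-fold. It was -0.21 under quantile normalization and -0.20 under the percentile over detected probes. Both combination arrays were below both DMSO arrays for 32 members, beside 37.9% of all genes. In this line same-numbered arrays deviated together, and with the replicate number as a block 5 members were called, MCM2 and MCM7 in addition, beside 9.02% of all genes. Without DMSO replicate 1 or without combination replicate 1 no member was called by limma, and 1 was without DMSO replicate 2 or any one of the GSK126 and UNC0638 arrays. Within replicate 1 the members' median difference was -0.49, and within replicate 2 it was -0.19.

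Neither inhibitor alone moved a member past the threshold in RPMI-8226 cells. With GSK126, limma called 0 of 42 lower, beside 0.0499% of all genes, and 2 were lower at an unadjusted p under 0.05, beside 4.35%. The median difference was -0.08, but -0.19 when DMSO replicate 2 was left out, -0.02 when the other was, and 0.00029 under quantile normalization. Both treated arrays were below both DMSO arrays for 18 members, beside 22.7% of all genes. With UNC0638, limma called 0 lower, beside 0.0686% of all genes, and 0 were lower at an unadjusted p under 0.05, beside 4.32%. The median difference was 0.02, and it ran from -0.09, when DMSO replicate 2 was left out, to 0.07, when the other was. The arrays were separate and lower for 8 members, beside 23.3% of all genes, and separate and higher for 5, beside 18.8% of all genes.

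**Figure D1:**
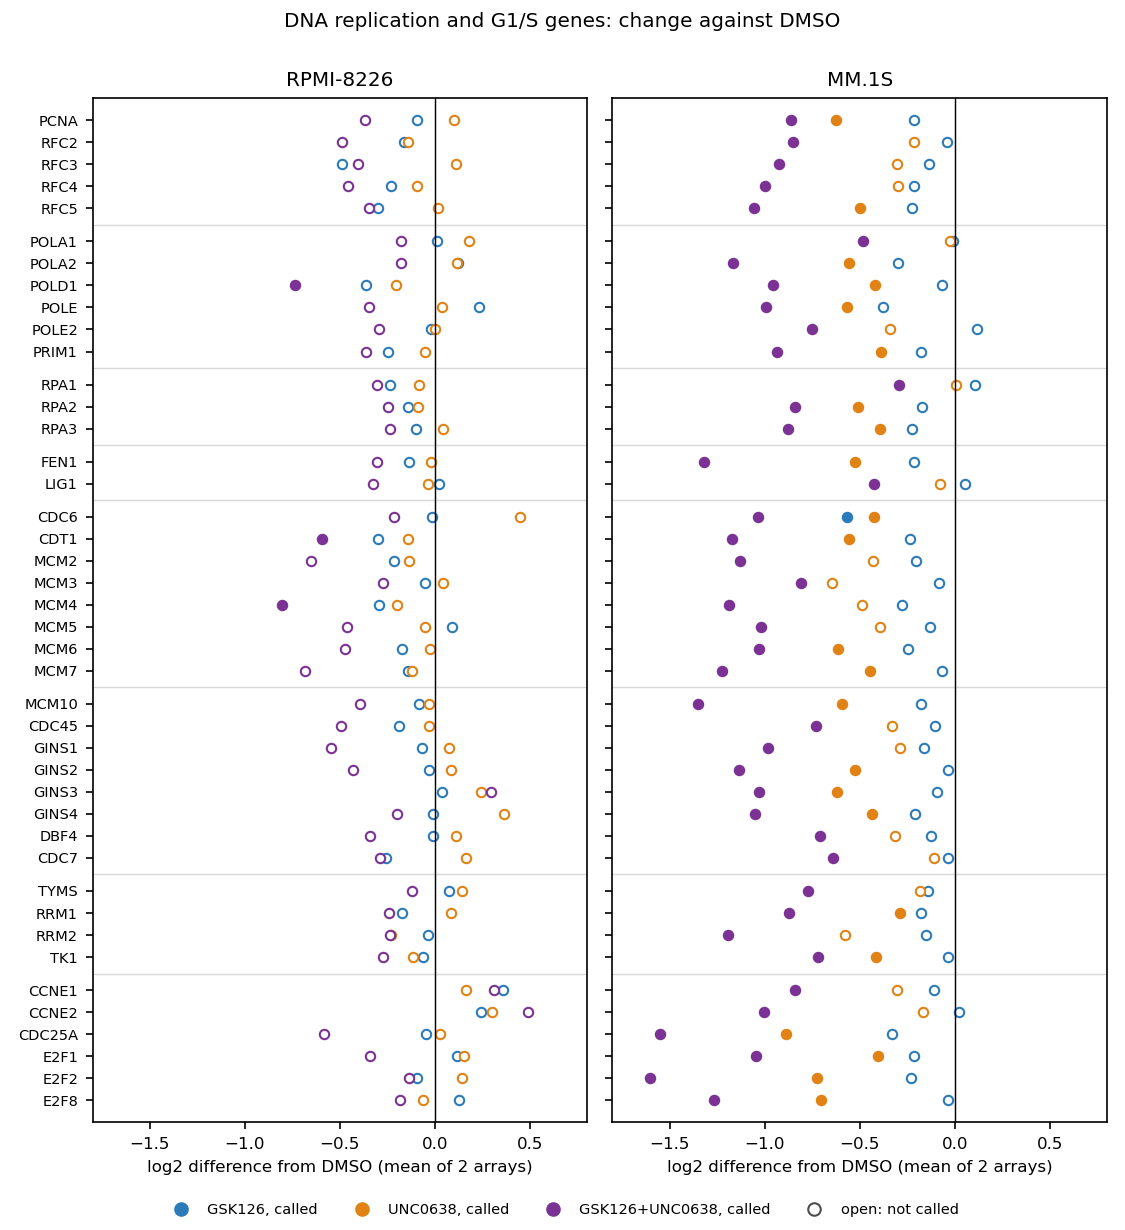
Difference from DMSO on the log2 scale (horizontal axis) for each of the 42 genes (vertical axis, grouped by role), in RPMI-8226 (left) and MM.1S (right) cells, with 1 point per treatment from the means of 2 arrays and filled points for limma calls. In MM.1S cells all 42 combination points are filled and lie between -1.60 and -0.29, while in RPMI-8226 cells 3 are filled and 39 lie below 0.

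In what follows a gene that moved most or least in its role is the one with the largest or smallest combination difference averaged over both lines. The sliding clamp and its loader are PCNA, which holds polymerases on the template, and the RFC subunits that open the ring. All 5 were called lower in MM.1S cells with the combination, with a median difference of -0.92, and PCNA and RFC5 also with UNC0638 alone. RFC4 moved most on average. Its levels in MM.1S cells were 4.89 and 4.91 with DMSO, 4.71 and 4.67 with GSK126, 4.68 and 4.53 with UNC0638, and 3.98 and 3.83 with the combination. In RPMI-8226 cells RFC4 lay at 4.88 and 4.68, 4.58 and 4.52, 4.66 and 4.72, and 4.29 and 4.37 in the same order. The combination arrays were the lowest in both lines, by 1.00 (SE 0.09) in MM.1S cells and, not called, by 0.46 (SE 0.14) in RPMI-8226 cells. PCNA moved least on average. PCNA levels in MM.1S cells were 5.58 and 5.56 with DMSO, 5.36 and 5.35 with GSK126, 4.79 and 5.10 with UNC0638, and 4.84 and 4.58 with the combination. UNC0638 and combination arrays of PCNA overlapped, and the combination difference from DMSO was -0.86 (SE 0.14). In RPMI-8226 cells PCNA lay at 5.63 and 5.78, 5.60 and 5.63, 5.75 and 5.86, and 5.20 and 5.48. PCNA's 3 probes were all called lower with the combination in MM.1S cells, while with UNC0638 the probe used was called (-0.62, limma adjusted p = 0.0204) and the others were not (-0.34 and -0.39).

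Among the polymerases and the primase, POLA1, POLA2 and PRIM1 start each strand, POLD1 belongs to the lagging-strand and POLE and POLE2 to the leading-strand enzyme. All 6 were called lower in MM.1S cells with the combination (median -0.95), 4 of them also with UNC0638 alone. POLD1 moved most on average, although in MM.1S cells POLA2 (-1.17) and POLE (-0.99) fell more. POLD1 levels in RPMI-8226 cells were 3.79 and 3.85 with DMSO, 3.45 and 3.46 with GSK126, 3.60 and 3.63 with UNC0638, and 3.04 and 3.12 with the combination. Its MM.1S levels were 3.31 and 3.31, 3.34 and 3.15, 3.03 and 2.77, and 2.35 and 2.37. The replicates of POLD1 lay close together, and its combination falls were 0.74 and, in MM.1S cells, 0.96 (SE 0.12). POLA1, the catalytic subunit of polymerase alpha, moved least on average. In MM.1S cells POLA1 was at 2.52 and 2.64 with DMSO, 2.59 and 2.55 with GSK126, 2.58 and 2.53 with UNC0638, and 2.14 and 2.05 with the combination. The first 3 groups overlapped and the combination alone stood below them, by 0.49 (SE 0.08) against DMSO. In RPMI-8226 cells POLA1 lay at 2.88 and 2.79, 2.83 and 2.86, 2.87 and 3.16, and 2.52 and 2.80, and the groups overlapped. POLE lay at -1.93 and -1.50, -1.19 and -1.77, -1.60 and -1.76, and -2.04 and -2.08 in RPMI-8226 cells. POLE in the MM.1S line lay at -0.66 and -0.71, -0.99 and -1.13, -1.13 and -1.36, and -1.48 and -1.87, where the combination arrays were the lowest. The second probe of POLE gave 0.09 in RPMI-8226 cells with the combination where the first gave -0.35, neither called, and both were called lower in MM.1S cells.

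RPA1, RPA2 and RPA3 form the complex that coats single-stranded DNA. All 3 fell in MM.1S cells with the combination. RPA3 levels there were 5.88 and 5.83 with DMSO, 5.64 and 5.61 with GSK126, 5.46 and 5.46 with UNC0638, and 4.97 and 4.99 with the combination. The 4 groups were separate and in that order, and RPA3 fell by 0.40 with UNC0638 (limma adjusted p = 0.012) and by 0.88 with the combination (SE 0.07, limma adjusted p = 0.000403). In RPMI-8226 cells RPA3 lay at 5.84 and 5.84, 5.71 and 5.78, 5.81 and 5.96, and 5.64 and 5.57, a combination difference of -0.24 that was not called. RPA1, the large DNA-binding subunit, moved least on average, although its RPMI-8226 difference (-0.30) was the lowest of the 3, none of them called. RPA1 levels in MM.1S cells were 4.93 and 4.87 with DMSO, 5.03 and 4.99 with GSK126, 4.89 and 4.92 with UNC0638, and 4.73 and 4.49 with the combination. In RPMI-8226 cells they were 4.87 and 4.89, 4.60 and 4.69, 4.75 and 4.84, and 4.56 and 4.60. The MM.1S difference of RPA1 was small, with a limma adjusted p of 0.0471, it was 0.07 under quantile normalization, and its dimmer second probe was not called (-0.61, limma adjusted p = 0.0579).

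FEN1 trims the flaps of Okazaki fragments and LIG1 seals them. FEN1 levels in MM.1S cells were 2.58 and 2.66 with DMSO, 2.39 and 2.41 with GSK126, 2.16 and 2.02 with UNC0638, and 1.43 and 1.17 with the combination. Each group lay below the one before, and FEN1 fell by 0.52 with UNC0638 and by 1.32 with the combination (SE 0.11, limma adjusted p = 0.000438). In RPMI-8226 cells FEN1 was at 2.89 and 2.68, 2.63 and 2.67, 2.67 and 2.86, and 2.31 and 2.65, a difference of -0.30 that was not called. LIG1 fell less in MM.1S cells, while the RPMI-8226 differences of both genes were alike in size (-0.32 and -0.30, not called). In MM.1S cells LIG1 lay at 3.52 and 3.39 with DMSO, 3.58 and 3.44 with GSK126, 3.42 and 3.34 with UNC0638, and 3.17 and 2.90 with the combination, a fall of 0.42 (SE 0.12). Its RPMI-8226 levels were 3.11 and 3.31, 3.30 and 3.16, 3.1003 and 3.24, and 2.70 and 3.07. The combination arrays of LIG1 were the lowest in each line.

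The 8 licensing genes, CDC6, CDT1 and the MCM helicase subunits MCM2 to MCM7, fell together in MM.1S cells with the combination, 7 of them by over 2-fold, with a median of -1.08. They also had the lowest role median in RPMI-8226 cells, -0.54, with MCM4 and CDT1 called. MCM4 moved most on average, although in MM.1S cells MCM7 fell more (1.22). MCM4 MM.1S levels were 3.63 and 3.60 with DMSO, 3.37 and 3.30 with GSK126, 3.23 and 3.03 with UNC0638, and 2.63 and 2.23 with the combination, a fall of 1.18 (SE 0.15). In RPMI-8226 cells MCM4 lay at 4.40 and 3.86, 3.83 and 3.83, 3.94 and 3.93, and 3.29 and 3.36. The RPMI-8226 DMSO arrays of MCM4 were far apart, yet both combination arrays were below all other arrays of the line. MCM3 moved least on average. MCM3 levels in MM.1S cells were 5.60 and 5.75 with DMSO, 5.59 and 5.59 with GSK126, 4.75 and 5.30 with UNC0638, and 5.01 and 4.72 with the combination. Its UNC0638 arrays lay far apart and overlapped the combination arrays, and the UNC0638 difference of -0.65 was not called (limma adjusted p = 0.0533) while the combination fall of 0.81 was (SE 0.20, limma adjusted p = 0.0153). In RPMI-8226 cells MCM3 was at 5.90 and 5.94, 5.94 and 5.80, 5.90 and 6.03, and 5.52 and 5.78. MCM7 lay at 7.87 and 7.82, 7.66 and 7.76, 7.73 and 7.73, and 6.91 and 7.41 in RPMI-8226 cells and at 7.37 and 7.39, 7.34 and 7.27, 7.02 and 6.84, and 6.17 and 6.14 in MM.1S cells, with the combination arrays lowest in each line. MCM7, read at 2 probes, fell by 1.22 and 1.10 in MM.1S cells with the combination, and with UNC0638 the probe used was called (-0.45) and the other was not (-0.62, limma adjusted p = 0.0603).

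Of the 8 genes that activate the helicase, all were called lower in MM.1S cells with the combination (median -1.01). MCM10, GINS2, GINS3 and GINS4 were also called lower with UNC0638. MCM10, a factor that helps the loaded helicase unwind origins, moved most on average. MCM10 levels in MM.1S cells were 0.58 and 0.55 with DMSO, 0.38 and 0.40 with GSK126, 0.14 and -0.20 with UNC0638, and -0.58 and -0.99 with the combination. The 4 groups were separate in that order, and the combination fall was 1.35 (SE 0.17). In RPMI-8226 cells MCM10 was at 1.28 and 0.66, 0.90 and 0.86, 0.89 and 0.98, and 0.43 and 0.71, with DMSO arrays that spanned both single inhibitors. GINS3, a subunit of the GINS complex, went opposite ways in the lines. Its MM.1S levels were 3.43 and 3.30 with DMSO, 3.33 and 3.22 with GSK126, 2.79 and 2.70 with UNC0638, and 2.55 and 2.12 with the combination, falls of 0.62 and 1.03 for the last 2. In RPMI-8226 cells GINS3 lay at 3.93 and 3.66, 3.91 and 3.75, 4.04 and 4.03, and 4.09 and 4.09. The RPMI-8226 difference of 0.29 (SE 0.15) was not called, although both combination arrays were above both DMSO arrays. GINS1, GINS2 and GINS4 had RPMI-8226 differences of -0.55, -0.43 and -0.20. DBF4, which activates the kinase CDC7, lay at 2.67 and 2.27, 2.47 and 2.45, 2.60 and 2.56, and 2.03 and 2.23 in RPMI-8226 cells and at 3.01 and 2.98, 2.96 and 2.78, 2.71 and 2.65, and 2.23 and 2.33 in MM.1S cells, again with the combination arrays lowest. DBF4's probe was not called with UNC0638 in MM.1S cells (-0.31, limma adjusted p = 0.0512), while its second probe was (-0.49, limma adjusted p = 0.0147).

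RRM1 and RRM2 form ribonucleotide reductase, TYMS makes thymidylate and TK1 salvages thymidine. All 4 were called lower in MM.1S cells with the combination, with a median of -0.82, and RRM1 and TK1 also with UNC0638. The UNC0638 difference of RRM2 there, -0.58, was larger than that of RRM1, -0.29, but was not called in the main fit. RRM2, the subunit that cells renew for S phase, moved most on average. RRM2 was at 4.48 and 4.10 with DMSO, 4.30 and 3.98 with GSK126, 3.80 and 3.62 with UNC0638, and 3.33 and 2.86 with the combination in MM.1S cells, a fall of 1.19 (SE 0.21). In RPMI-8226 cells its levels were 3.04 and 2.94, 2.80 and 3.09, 2.69 and 2.83, and 2.71 and 2.79. UNC0638 and combination arrays of RRM2 overlapped there, and the combination difference was -0.24. TYMS moved least on average. In MM.1S cells TYMS lay at 6.28 and 6.14 with DMSO, 6.14 and 5.99 with GSK126, 6.07 and 5.99 with UNC0638, and 5.40 and 5.47 with the combination, and only the last differed by a call (-0.77, SE 0.09). Its RPMI-8226 levels were 6.23 and 5.93, 6.20 and 6.11, 6.21 and 6.24, and 5.93 and 5.99, which overlapped.

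The G1/S regulators had the lowest role median in MM.1S cells with the combination, -1.16, and the most mixed values in RPMI-8226 cells, from -0.58 to 0.49. CDC25A, the phosphatase that frees CDK2 from its inhibitory phosphate, moved most on average, although E2F2 fell more in MM.1S cells. In MM.1S cells CDC25A lay at 2.06 and 1.89 with DMSO, 1.71 and 1.59 with GSK126, 1.25 and 0.93 with UNC0638, and 0.62 and 0.24 with the combination. These 4 groups were separate in that order, with falls of 0.89 for UNC0638 (limma adjusted p = 0.014) and 1.55 for the combination (SE 0.17, limma adjusted p = 0.000854). In RPMI-8226 cells CDC25A was at 2.39 and 2.08, 2.38 and 2.001, 2.21 and 2.31, and 1.45 and 1.85, a difference of -0.58 (SE 0.21) that was not called. The E2F factors followed in MM.1S cells: E2F1 fell by 0.40 with UNC0638 and by 1.05 with the combination, and E2F8, a repressor made in S phase, by 0.70 and 1.27. E2F2 stood at 5.75 and 5.86 with DMSO, 5.57 and 5.59 with GSK126, 5.17 and 5.00 with UNC0638, and 4.38 and 4.04 with the combination. In RPMI-8226 cells E2F2 lay at 5.51 and 5.32, 5.27 and 5.38, 5.52 and 5.59, and 5.24 and 5.32, so its 4 groups were separate in MM.1S cells and overlapped in RPMI-8226 cells. CCNE1 and CCNE2 are the E cyclins. CCNE2 moved least on average, its differences having opposite signs. Its MM.1S levels were -1.25 and -1.72 with DMSO, -1.003 and -1.92 with GSK126, -1.52 and -1.78 with UNC0638, and -2.64 and -2.32 with the combination, a fall of 1.00 (SE 0.33). RPMI-8226 levels of CCNE2 were 0.20 and -0.44, 0.40 and -0.16, 0.26 and 0.10, and 0.66 and 0.07. The highest SD of a group in each line was that of CCNE2, up to 0.65, and its second probe was called lower with UNC0638 in MM.1S cells (-0.95, limma adjusted p = 0.00693) where the first was not (-0.17).

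**Figure D2:**
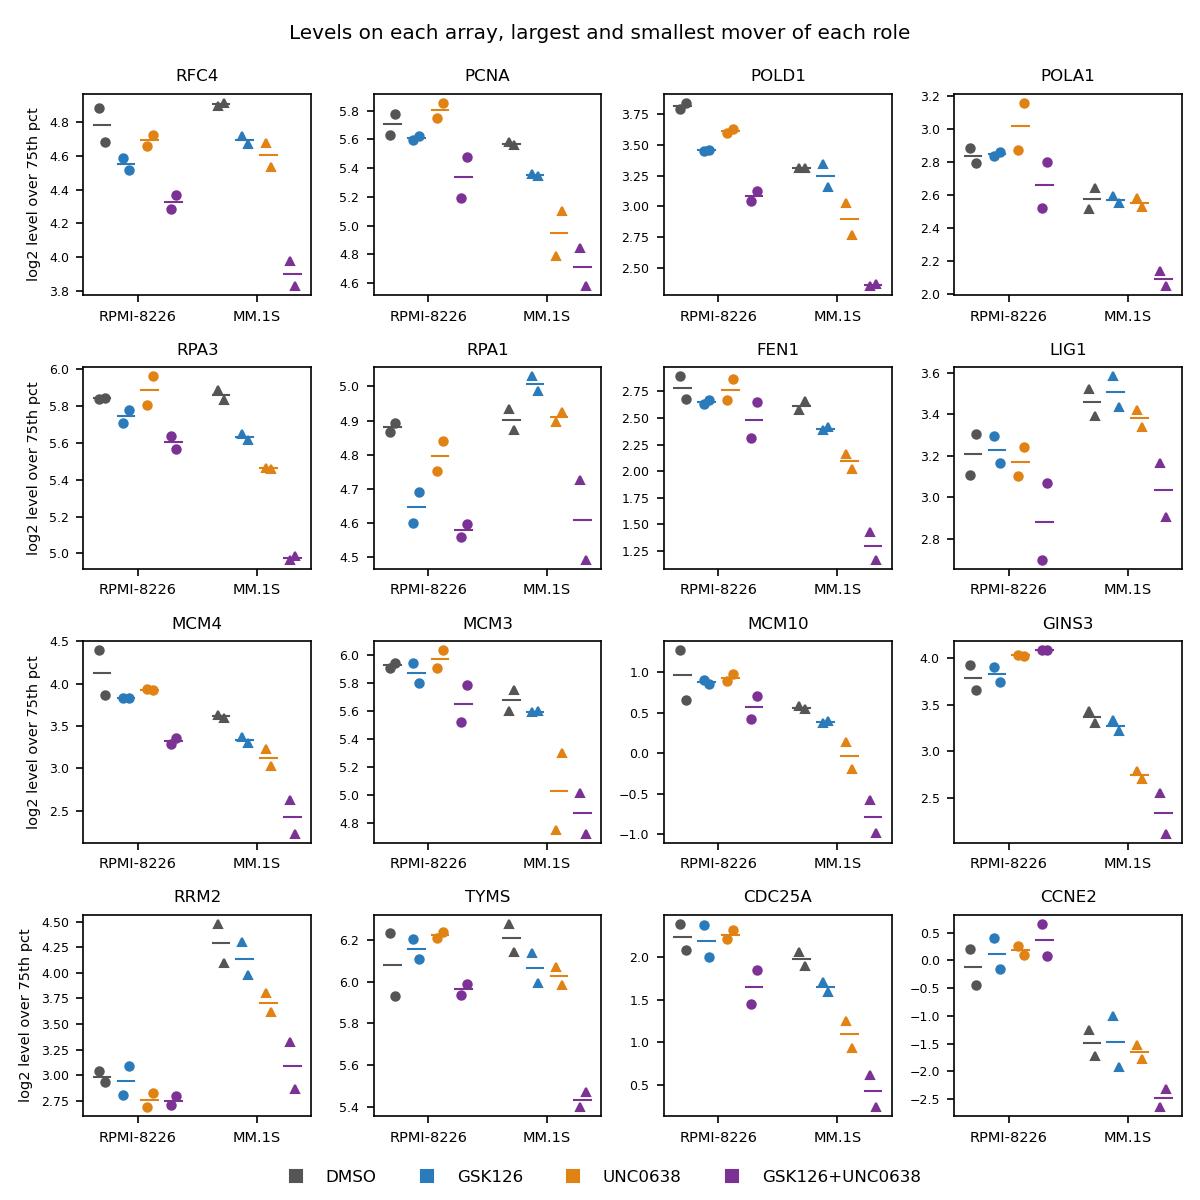
Level on each array (vertical axis, log2 intensity over the 75th percentile of the array) for the member of each role with the largest and the smallest combination change averaged over both lines, with circles for RPMI-8226, triangles for MM.1S, colours for the treatment and a bar for the mean of 2 arrays. In MM.1S cells the combination triangles are below both DMSO triangles in all 16 panels, and in RPMI-8226 cells GINS3 and CCNE2 have the highest mean with the combination.

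The next comparison asked what the second inhibitor added to the first. In MM.1S cells the combination had the lowest of the 4 group means for 42 of 42 members, beside 43% of all genes. Both its arrays were below all 6 other arrays of the line for 40, all but MCM3 and PCNA, beside 27.1% of all genes. The order DMSO, GSK126, UNC0638, combination, from high to low, held for the means of 37 members, beside 24.2% of all genes. That is also the order of the treatments' positions on the slide, so treatment and position cannot be told apart here. Against GSK126 alone the combination called 41 members lower, beside 22.5% of all genes, with a median of -0.81, and CCNE2 (-1.02, limma adjusted p = 0.0526) was the exception. Against UNC0638 alone it called 27 lower, beside 7.69% of all genes, with a median of -0.59. E2F2 (-0.88), FEN1 (-0.79) and MCM7 (-0.78) had the largest called differences, and PCNA (-0.24) and MCM3 (-0.16) were among those not called. The count of 27 fell when any single array of the line was left out, and the share of all genes called was not taken in those fits. The median against UNC0638 ran from -0.65 to -0.46 over them.

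In RPMI-8226 cells 0 members were called by limma against either single inhibitor, beside 0.53% of all genes against GSK126 and 0.611% against UNC0638. At an unadjusted p under 0.05 there were 8 against GSK126, beside 9.23% of all genes lower at that p, and 17 against UNC0638, beside 9.97%, all lower. The combination had the lowest mean for 38 members, beside 42.4% of all genes, and both its arrays were below the 6 others for 24, beside 17.5%.

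The departure from additivity is the combination difference minus the sum of the single differences, and a negative value means a deeper fall than that sum. In MM.1S cells the members' median sum was -0.59, while at the median they fell by 1.00 with the combination. The departure was below 0 for 42 of 42 members, with a median of -0.42 beside -0.03 over all genes, from -0.85 for CCNE2 to -0.02 for PCNA. limma called 0 members lower, beside 0% of all genes, and 20 were lower at an unadjusted p under 0.05, beside 5.95%. In RPMI-8226 cells the departure was below 0 for 39 members, with a median of -0.27, and limma called 0, beside 0.00624% of all genes, with 1 lower at an unadjusted p under 0.05, beside 1.33%. The median was -0.14 without combination replicate 1. All members share the same 8 arrays of a line, so their signs are not independent of one another. The share of all genes with a departure below 0 was not set beside the counts of 42 and 39. Nor was the median over all genes set beside that of the members in RPMI-8226 cells.

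**Figure D3:**
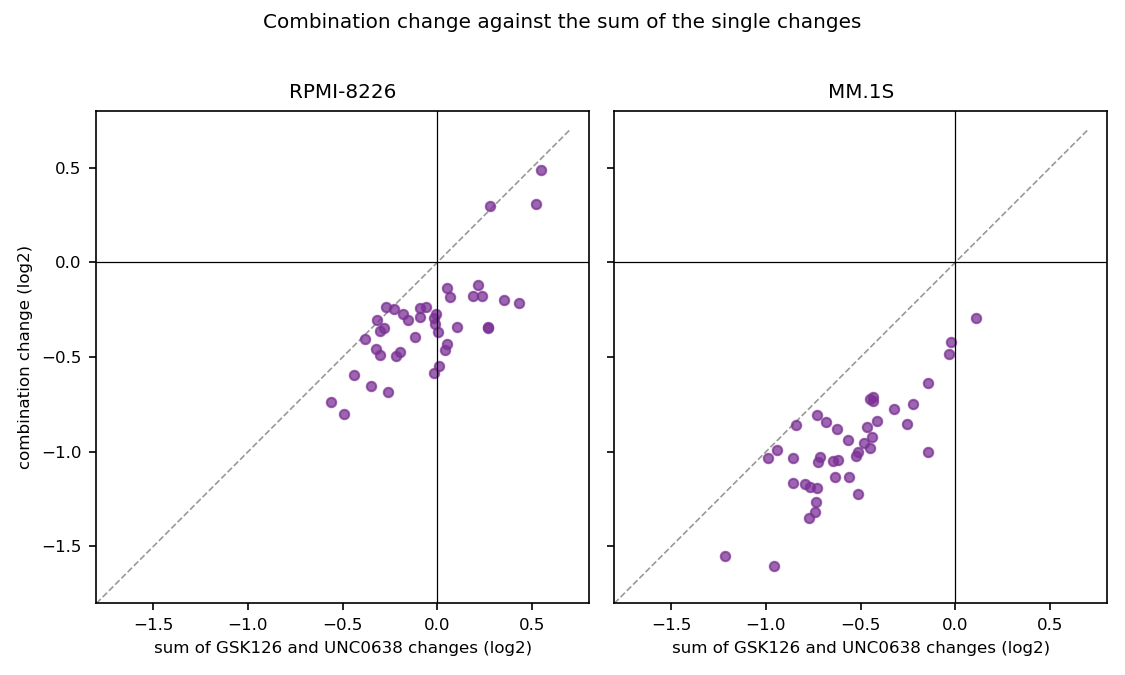
Combination difference from DMSO (vertical axis, log2) against the sum of the GSK126 and UNC0638 differences (horizontal axis, log2) for the 42 genes in RPMI-8226 (left) and MM.1S (right) cells, 1 point per gene, with a dashed line where they are equal. All 42 points in MM.1S and 39 in RPMI-8226 lie below the line.

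The response was then compared between the lines in 1 fit over 16 arrays, as RPMI-8226 minus MM.1S, so that a positive value means a smaller fall or a higher level in RPMI-8226 cells. For the combination 41 of 42 differences of response were above 0, with a median of 0.57 beside 0.08 over all genes. They were called for 12 members, beside 8.14% of all genes: E2F2 (1.47, limma adjusted p = 0.000951), GINS3 (1.32, limma adjusted p = 0.00366), CCNE1, E2F8, FEN1, POLA2, RRM2, GINS4, TYMS, RPA3, RRM1 and RFC4. Of the licensing genes none was called, with values from 0.38 for MCM4 to 0.82 for CDC6. CCNE2 had the highest value, 1.49, and was not called (limma adjusted p = 0.0736). The count was 5 without MM.1S combination replicate 2, 6 without RPMI-8226 combination replicate 2 or MM.1S DMSO replicate 1, and 7 without RPMI-8226 or MM.1S DMSO replicate 2. For UNC0638 the median was 0.42 and 1 member was called, E2F2 (0.87, limma adjusted p = 0.0376), beside 1.26% of all genes. By limma this count was 0 when RPMI-8226 DMSO replicate 2, either RPMI-8226 UNC0638 array, or any DMSO, GSK126 or UNC0638 array of MM.1S cells was left out, 5 when RPMI-8226 DMSO replicate 1 was, and 2 when a combination array of either line was. For GSK126 limma called 0 members higher, beside 0.44% of all genes, with a median of 0.05 and no member higher at an unadjusted p under 0.05, beside 5.54%. That median was -0.02 without RPMI-8226 DMSO replicate 2 and 0.13 without RPMI-8226 DMSO replicate 1.

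**Figure D4:**
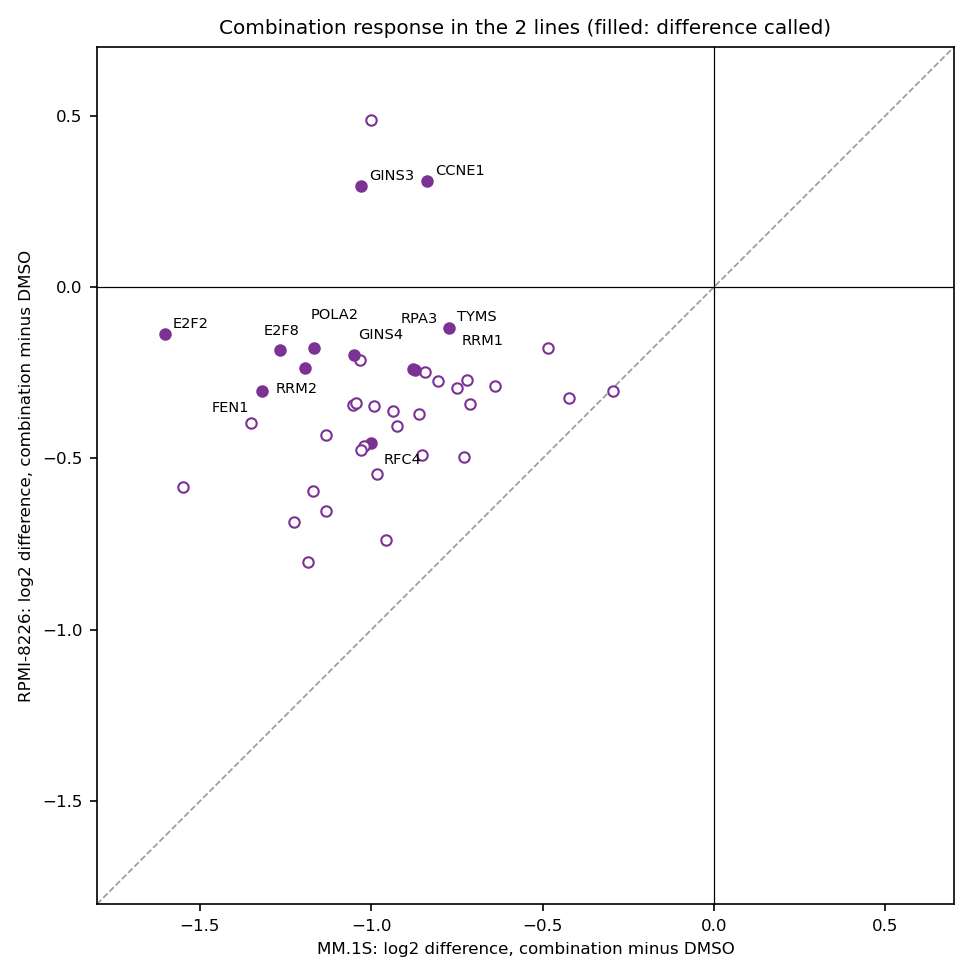
Combination difference from DMSO (log2) in RPMI-8226 cells (vertical axis) against MM.1S cells (horizontal axis), 1 point per gene, with a dashed line of equal response and filled, named points where the difference between the lines was called. All but RPA1 lie above the line, and CCNE2 is the open point at the top.

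Part of this set, like much of the array, differed between the lines before any inhibitor was added. With DMSO, 15 members were called higher in RPMI-8226 cells, beside 29.2% of all genes, and 8 lower, beside 29.8% of all genes. A called difference between the lines was thus no more common among the members than among all genes. POLE2 (1.86), CCNE2 (1.36) and RFC3 (1.29) were the members most above MM.1S cells, and CCNE1 (-1.997), RRM2 (-1.30) and E2F8 (-1.24) those most below. The E cyclins thus stood in opposite ways: CCNE1 was at 2.55 and 1.95 in RPMI-8226 and 4.40 and 4.10 in MM.1S cells with DMSO, and CCNE2 the other way round. The count of 23 was 14 without RPMI-8226 DMSO replicate 1 or MM.1S DMSO replicate 2, and 15 without MM.1S DMSO replicate 1. The same DMSO arrays enter the comparison of responses.

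**Figure D5:**
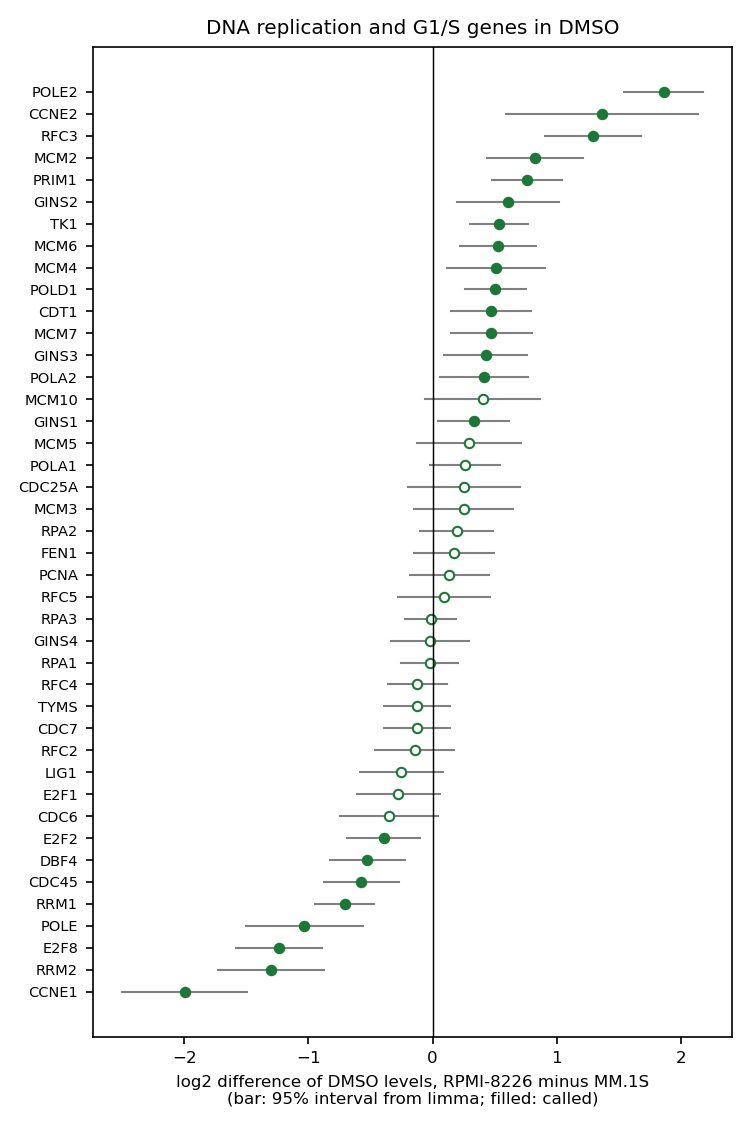
Difference of the DMSO levels between the lines (horizontal axis, log2, RPMI-8226 minus MM.1S) for the 42 genes (vertical axis, sorted), with bars for the 95% interval from limma and filled points for calls. The values run from -1.997 for CCNE1 to 1.86 for POLE2, and 19 points are open.

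Other genes of the same processes, from 3 further lists, were read the same way. Of 52 other replication and S-phase genes, 43 were called lower and 3 higher in MM.1S cells with the combination, beside 32.2% and 23.2% of all genes, with a median of -0.79. ORC1 of the origin recognition complex (-1.75), UHRF1, which guides maintenance of DNA methylation (-1.35), and the histone chaperone ASF1A (-1.29) fell most. The 3 that rose were POLD4, a small subunit of polymerase delta (0.75), TK2, the mitochondrial thymidine kinase (0.73), and RRM2B, the reductase subunit that p53 induces (0.64). In RPMI-8226 cells CHAF1A (-0.57) and RNASEH2A (-0.54) were called lower, 2 of 52 beside 4.72% of all genes, and none higher.

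Of 27 G1/S control genes 26 were tested in each line. In MM.1S cells 17 were called lower with the combination, beside 32.2% of all genes. Another 5 were called higher, a share of the 26 near that of all genes, 23.2%. MYBL2, a cell cycle transcription factor (-1.58), SKP2, which directs the breakdown of CDK inhibitors (-1.48), and TFDP2, a partner of E2F factors (-1.27), fell most. CDKN1C, a CDK inhibitor (1.79), E2F7, an E2F repressor (0.74), and RB1 (0.48) rose most. In RPMI-8226 cells RBL1 (-0.77) and CCND2 (-0.69) were called lower, 2 of 26 beside 4.72% of all genes, and none higher. Of 20 G2 and mitosis genes, 17 were called lower and none higher in MM.1S cells, beside 32.2% and 23.2% of all genes. Their median was -0.65, with the largest falls in KIF11 (-1.42), CCNB1 (-1.05) and AURKB (-0.90). In RPMI-8226 cells 1 of the 20, BUB1 (-0.66), was called lower, a share near the 4.72% of all genes. The members, which at the median fell by 1.00 in MM.1S cells, had a lower median than each of the 3 lists, a difference that carries no test.

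Markers of plasma cells, the type of both lines, and of other cell types moved with the combination as well. In MM.1S cells all 8 plasma cell markers were called lower, by 0.40 to 1.19, beside 32.2% of all genes. Their summed linear level, relative to the 75th percentile, was 533 to 543 with DMSO and 360 to 361 with the combination. MS4A1, the 1 B cell marker tested (3.41), and CD3E of 2 T cell markers tested (2.39) were called higher, beside 23.2% of all genes. MS4A1 was well above background on 2 of 8 MM.1S and 5 of 8 RPMI-8226 arrays, and CD3E on 5 and 4. COL1A2 was so on 2 of 8 RPMI-8226 arrays. Such probes passed the filter through the groups where they were high, so their rises start near background and their calls are not a test. The summed level of the T cell markers in MM.1S cells was 0.102 to 0.157 with DMSO and 0.311 to 0.317 with the combination. In RPMI-8226 cells the 3 T cell markers were called higher, beside 8.17% of all genes. Their summed level was 0.263 to 0.351 with DMSO and 11.5 to 13.4 with the combination. MS4A1, CD14 of 2 monocyte markers tested and COL1A2, the 1 fibroblast marker tested, were called higher as well. With UNC0638 alone the 3 T cell markers and MS4A1 were also called higher in RPMI-8226 cells, beside 0.649% of all genes. In MM.1S cells 5 of 8 plasma cell markers were called lower with UNC0638, beside 16.5% of all genes. With the combination in RPMI-8226 cells SDC1, TNFRSF17 and IRF4 of the plasma cell markers were called lower, beside 4.72% of all genes, and SLAMF7 higher. PAX5, CD22, COL3A1 and ALAS2 were well above background on no array of either line. The part of these shifts in the members' differences was not tested.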

How the data were processed

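Gene expression was measured on 16 1-colour arrays. The authors deposited scanner output (Agilent Feature Extraction 10.7 per the labels), in which each spot has a linear intensity after background subtraction and detrending, and a table of the same intensities rounded to 3 digits. Probe positions refer to GRCh37.

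Control spots (4259 of 62976) and outlier spots were dropped. Each array's 75th percentile was subtracted from its log2 intensities, and the result was averaged per probe. A probe was kept where both arrays of some group stood well above background (23217 in RPMI-8226, 25120 in MM.1S, 26952 over both). Group means were fitted with limma 3.58.1 (R 4.3.3), within a line on 8 arrays and between lines on 16, with Benjamini-Hochberg adjustment over all kept probes. Tested on simulated data with few changed probes, the fit returned the mean size of the changes but missed the smaller ones, more so in RPMI-8226 cells, so an uncalled difference does not show that a gene did not change. The study's methods name no test for the arrays. Precision is limited by 2 arrays a group.

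Members and gene lists were chosen with earlier results of these data known. Values on each array are given for the member of each role with the largest and smallest mean combination change and for members whose probes disagreed. E2F2, added after its values were seen, is also given. From the other lists the 3 largest called falls and rises are named. Same-numbered arrays deviated together in 6 of 6 pairs of groups in RPMI-8226 cells (r across probes 0.253 to 0.415). From this check alone the numbers were taken as a pairing in a further fit with the replicate number as a block. The main fit, which gave the calls and SEs above, has no such term. Same-numbered arrays also share the first number of their slide position, so paired samples and a shared position cannot be told apart.

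Scaling, background correction, filter, probe choice, replicate block, prior variance, samples in the fit, the table and single arrays left out were varied. Some cell type markers are not reported here.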

Additional observations from a re-analysis of the deposited data

Results flagged for a closer look

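The response to an inhibitor differed between the lines by a test of the difference itself for the members below, given as the RPMI-8226 response minus the MM.1S response in log2 units, from limma over 16 arrays. For the combination these were E2F2 with 1.47, GINS3 with 1.32, CCNE1 with 1.15, E2F8 with 1.08, FEN1 with 1.02 and POLA2 with 0.99. The others were RRM2 with 0.96, GINS4 with 0.85, TYMS with 0.65, RPA3 with 0.64, RRM1 with 0.63 and RFC4 with 0.54. Of 25 alternatives, 17 lost the call of RFC4, 15 each those of RRM2 and CCNE1, 10 that of TYMS, 5 that of RRM1, 4 that of GINS4, 2 that of POLA2 and 1 that of RPA3, while E2F2, GINS3, FEN1 and E2F8 lost it in none. For UNC0638 it was E2F2 with 0.87. GINS3 and CCNE1 had RPMI-8226 differences above 0 (0.29 and 0.31, not called) and called falls in MM.1S cells (1.03 and 0.84). Slide and line cannot be told apart.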

How the results depend on the processing

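In MM.1S cells with the combination, between 37 and 42 members were called under every alternative, and the reversed value was that of RPA1, 0.0697 under quantile normalization (limma adjusted p = 0.626). Other counts moved. For the combination in RPMI-8226 cells (3 called) they were 1 with quantile normalization and with the 75th percentile over probes detected on all arrays, 6 with normexp, 0 with no filter and with only the groups compared, 5 with the replicate block and with the mean of all probes, 9 with a prior variance that follows the level, and 10 with 1 fit over all 16 arrays. Against UNC0638 in that line (0 called) there were 1 with normexp, 2 with the prior variance and 6 with the 16-array fit. In MM.1S cells GSK126 (1 called) gave 0 with the detected-probe percentile, no filter, the replicate block, only the groups compared and the 16-array fit, and 2 with the prior variance. UNC0638 (23) gave 9 with quantile normalization, 12 with the detected-probe percentile, 5 with no filter and 14 with the 16-array fit. The combination against UNC0638 (27) gave 16 with the detected-probe percentile and with the 16-array fit, 1 with no filter and 0 with only the groups compared. For the difference of response between lines, UNC0638 (1) gave 0 with quantile normalization and with no filter, 4 with normexp, 3 with the filter over all arrays and with the replicate block, and 5 with the prior variance, and the combination (12) gave 7 with no filter and 22 with the prior variance. The cause was not tested. The share of all genes called under the same setting was not set beside these counts or those with an array left out. A moved count therefore need not be particular to the members.

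Leaving out each array in turn gave 0 to 3 for the combination in RPMI-8226 cells, 0 to 0 for GSK126 and 1 to 22 for UNC0638 in MM.1S cells, 0 to 21 for the combination against UNC0638, 0 to 5 and 5 to 17 for the differences of response to UNC0638 and the combination, and 14 to 23 for DMSO between lines. In MM.1S cells same-numbered arrays deviated together in 5 of 6 pairs of groups (r 0.0842 to 0.225), short of every pair over 0.1, the limit set for taking the numbers as a pairing, and the labels name no shared batch. The replicate block there gave 27 for UNC0638, beside 19.7% of all genes lower, and 33 for the combination against UNC0638, beside 10.3%.

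The percentile over detected probes moved the median of all genes with the combination from -0.10 to 0.03 (RPMI-8226) and from -0.11 to 0.07 (MM.1S), and the share of calls that were higher from 63.4% to 79.2% and from 41.8% to 58.6%. That share moved from 45.6% to 62.1% for UNC0638 and from 71.3% to 84.8% for GSK126 in MM.1S cells, and under quantile normalization to 55.7% for UNC0638 there. Relative to that median the members' median was -0.23 and -0.88 under both percentiles, and -0.14 and -0.71 under quantile normalization. With 2 arrays a group, small differences in RPMI-8226 cells lay within the spread.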
